A study of Mus musculus with 10 samples.

Results

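The genes described here are Eomes, Insm1, Sstr2, Mfap4, Mfng, Rhbdl3 and Elavl4, which are enriched in or used to mark the intermediate progenitors of the developing cortex. They were chosen by name, as 7 of the 53379 genes with a deposited count, and all 7 passed the filter of a mean of at least 10 reads per library that left 11551 genes for testing. RNA was sequenced from sorted cells of the neocortex of mouse embryos at embryonic day 16 (E16), to ask how loss of Cdkn1c, a cyclin-dependent kinase inhibitor expressed mainly from the maternal allele, changes gene expression in the cells. Each of the 10 libraries was made by Smart-Seq2 from 400 cells of 1 embryo.

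The 3 cKO libraries came from cKO-Cdkn1c-MADM-7 embryos, which carry Cdkn1c-flox on both copies of chromosome 7, the copy with the GT cassette and the copy with the TG cassette, together with Emx1 Cre/+. The 7 control libraries came from MADM-7 embryos with the same cassettes and Emx1 Cre/+ but an intact Cdkn1c. In MADM, Cre recombines matching cassettes on homologous chromosomes and labels sparse cells with GFP, tdT or both, and green or red cells can hold a pair of maternal or a pair of paternal copies of the chromosome. All GFP+, tdT+ and GFP+/tdT+ cells were pooled in the sort, so each library in both groups mixes these copy states and mixes every cell type that descends from Emx1-expressing progenitors. The background was mixed C57BL/6J and CD1, given as CD1 in the sample labels.

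Radial glia divide at the ventricle and give rise to projection neurons either directly or through intermediate progenitors, which divide away from the ventricle and produce neurons of every cortical layer. Intermediate progenitors switch on the transcription factor Eomes (also known as Tbr2) as they leave the radial glial state and switch it off as their daughters become neurons. The listed genes cover several stages of that passage, from transcription factors of the progenitor to an RNA-binding protein that persists in the neuron.

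Reads counted on genes ran from 1738220 to 3362487 per library. Cdkn1c had 10 to 32 reads per cKO library and 116 to 369 per control library, and its log2 fold change was -3.66 (SE 0.31, edgeR adjusted p = 3.68e-06). Of the uniquely aligned reads on genes or outside them, 5.78% to 17.5% lay outside genes. On that share the libraries lay in a set under 10% (cKO replicate 3 and control replicates 1, 2, 6 and 7) and a set over 10% (cKO replicates 1 and 2 and control replicates 3, 4 and 5). Values within each set are given beside the members and the called genes. Those of the set under 10% rest on 1 cKO embryo. Hemoglobin and vessel genes summed to 1484 to 2271 CPM in cKO replicate 1 and control replicates 2 and 5, and to at most 63.6 CPM in the other libraries. CPM is the read count per 1000000 reads on the genes tested, with library totals scaled by TMM factors.

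With edgeR, 0 of the 7 members reached an adjusted p under 0.05 between cKO and control (quasi-likelihood test), against 3.15% of all genes tested. DESeq2 called 1 of the 7, Sstr2, against 4.42% of all genes, and limma-voom called 0. An unadjusted edgeR p under 0.05 was reached by 3 of the 7 (Insm1, Sstr2 and Elavl4), against 16.4% of all genes. Insm1 and Sstr2 lay lower in cKO and Elavl4 higher, so these 3 did not point the same way. The groups did not overlap for 1 of the 7, Sstr2, as was so for 6.00% of all genes tested. The median log2 fold change of the members was -0.06, beside 0.01 over all genes tested, and the members' values ran from -0.71 to 0.31. Because each library is a bulk sample, fewer cells of a type and less RNA per cell cannot be told apart in any of these values.

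RefSeq promoter windows (GRCm38.p6, 250 bases before to 50 after a start site) were at hand for 3 of the 7 members, Eomes, Sstr2 and Elavl4. They are shown because Eomes defines the cell type and because Sstr2 and Elavl4, at fold changes of opposite sign, kept their sign in every alternative. Capitals mark the E-box CANNTG, the core that basic helix-loop-helix factors such as Neurog2 bind, and the cAMP response element TGACGTCA. Both motifs read the same on either strand and they do not overlap here. The motifs were chosen after the sequences had been seen.
Eomes, chr9:118477939-118478238, plus strand: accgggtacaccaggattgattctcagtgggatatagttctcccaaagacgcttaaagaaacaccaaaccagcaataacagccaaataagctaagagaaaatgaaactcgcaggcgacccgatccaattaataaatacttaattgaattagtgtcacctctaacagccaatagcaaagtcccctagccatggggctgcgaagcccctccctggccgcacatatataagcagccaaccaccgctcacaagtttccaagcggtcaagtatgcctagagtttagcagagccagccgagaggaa
Sstr2, chr11:113619077-113619376, plus strand: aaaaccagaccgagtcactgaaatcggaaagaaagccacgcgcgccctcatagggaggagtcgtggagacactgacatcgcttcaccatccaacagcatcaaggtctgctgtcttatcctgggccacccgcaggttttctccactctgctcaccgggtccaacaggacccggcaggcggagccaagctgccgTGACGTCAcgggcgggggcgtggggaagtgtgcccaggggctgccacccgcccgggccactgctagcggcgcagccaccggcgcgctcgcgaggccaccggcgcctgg
Elavl4, chr4:110287478-110287777, minus strand: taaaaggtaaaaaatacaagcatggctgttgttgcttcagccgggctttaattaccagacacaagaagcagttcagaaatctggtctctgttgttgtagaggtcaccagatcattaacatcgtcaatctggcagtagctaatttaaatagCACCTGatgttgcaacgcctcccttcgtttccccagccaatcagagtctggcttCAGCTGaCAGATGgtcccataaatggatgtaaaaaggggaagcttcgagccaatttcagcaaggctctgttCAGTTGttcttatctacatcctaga

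The Eomes window held neither motif. The Sstr2 window held TGACGTCA starting 58 bases before the start site, a motif found in 1.79% of the 32851 windows of the same length, and no E-box. The Elavl4 windows at hand held 0, 4, 4 and 1 E-boxes, and those with 4 overlap each other. The printed window, at an inner start site, was among those with the most. Of all windows, 6.49% held at least 4, a share that does not allow for a choice among several windows of a gene. The outermost Elavl4 window held none, and 72.3% of all windows held at least 1. Which Elavl4 start sites were in use in these cells was not measured, since counts were made per gene.

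Eomes (ENSMUSG00000032446.14, GRCm38 chromosome 9, 118478212 to 118486132, plus strand, 6 exons when its 3 transcripts are merged) encodes the T-box factor that defines intermediate progenitors. It stood at 96.8, 171 and 75.1 CPM in cKO replicates 1 to 3, and at 60.6 to 121 CPM in the controls with a median of 106. cKO replicate 2 was the highest of all 10 libraries and the other cKO libraries lay inside the control range. The means were 114 ± 50.3 CPM in cKO (SD, n = 3) and 100 ± 21.0 in controls (SD, n = 7). cKO against control, the log2 fold change was 0.18 (SE 0.24, 95% interval -0.32 to 0.68, edgeR adjusted p = 0.777), so that a fold of 0.80 to 1.60 was compatible with the data. Without cKO replicate 2 it was -0.24, and within the sets of libraries under and over 10% of reads outside genes it was -0.33 and 0.29. The sign for Eomes therefore rested on that library. An antisense gene, Gm33460, shares 118 exonic bases with Eomes, and reads there were left out of the count. With the strand-specific counts summed, the Eomes total was 1.10 times as large and the log2 fold change 0.21.

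Insm1 (ENSMUSG00000068154.5, chromosome 2, 146221921 to 146225020, plus strand, a single exon) encodes a zinc-finger factor that promotes the formation of progenitors away from the ventricle. It stood at 23.3, 87.5 and 51.3 CPM in the cKO libraries, and at 56.0 to 111 CPM in the controls with a median of 90.7. cKO replicates 1 and 3 lay below every control and cKO replicate 2 lay near the control median. The means were 54.0 ± 32.2 CPM in cKO and 86.5 ± 17.8 in controls (SD, n = 3 and 7). Its log2 fold change of -0.71 (SE 0.29, 95% interval -1.32 to -0.09) did not pass the test across all genes (edgeR adjusted p = 0.230). Insm1 was the member most dependent on single libraries. Without cKO replicate 2 it passed, at -1.27 (edgeR adjusted p = 0.0241), and without cKO replicate 1 it was -0.32 (adjusted p = 0.570). Within the sets under and over 10% the values were -0.73 and -0.70.

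Sstr2 (ENSMUSG00000047904.6, chromosome 11, 113619342 to 113626028, plus strand, 2 merged exons) encodes a G protein-coupled receptor for somatostatin, and its promoter window is the one printed with TGACGTCA. It stood at 136, 137 and 153 CPM in the cKO libraries, and at 156 to 261 CPM in the controls with a median of 209. Every cKO library lay below every control, although cKO replicate 3, at 153 CPM, and control replicate 3, at 156 CPM, were close. The means were 142 ± 9.63 CPM in cKO and 207 ± 34.3 in controls (SD, n = 3 and 7), so that cKO stood at 68.5% of the control mean. Its log2 fold change was -0.55 (SE 0.16, 95% interval -0.89 to -0.20), which missed the threshold after adjustment (edgeR adjusted p = 0.0824). Sstr2 passed in DESeq2 (-0.54, adjusted p = 0.0370) and, in edgeR, without control replicate 3 (-0.61, adjusted p = 0.0392). Over the 21 alternatives the adjusted p ran from 0.0370 to 0.787. The sign was negative in all of them, with values between -0.61 and -0.35, and within the sets under and over 10% of reads outside genes it was -0.54 and -0.45. Relative to Eomes in the same library, the ratio of Sstr2 to Eomes CPM ran from 0.800 to 2.04 among cKO libraries and from 1.29 to 3.46 among controls, so that the groups overlapped on this ratio, with 1 cKO library, replicate 2, below every control.

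**Figure D1:**
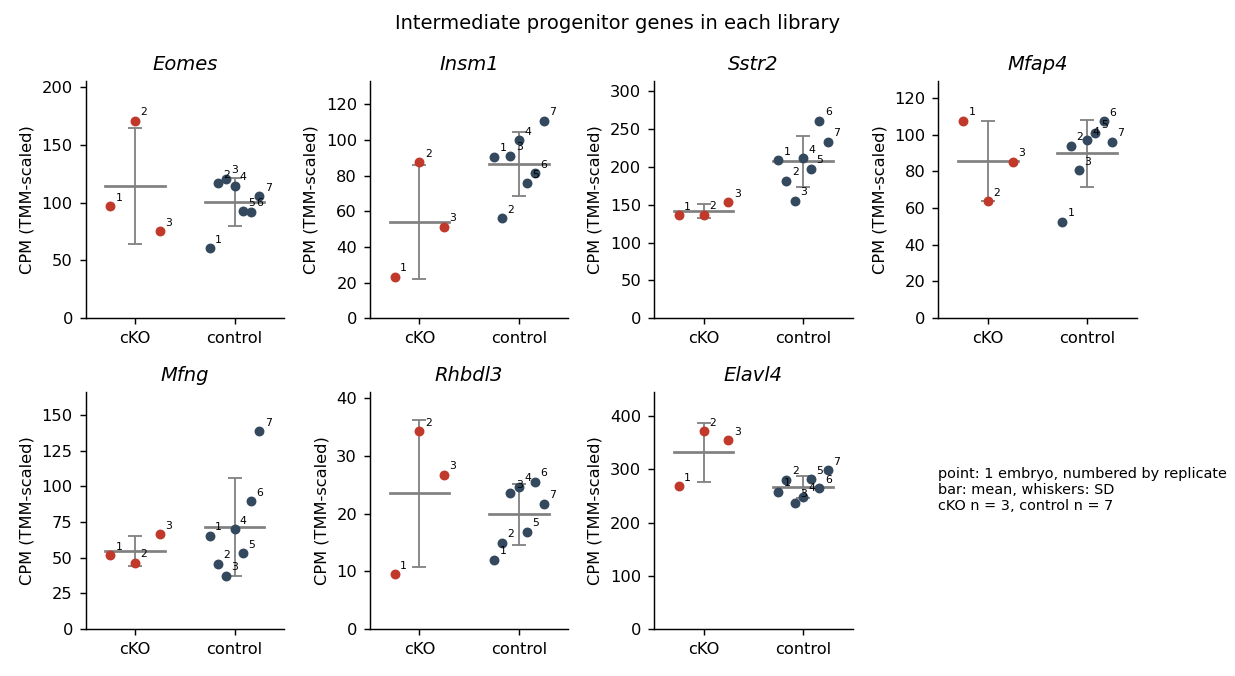
CPM of each member in every library, 1 panel per gene, with cKO (n = 3) and control (n = 7) on the x axis, points numbered by replicate, and the mean and SD as bar and whiskers. Sstr2 is the only panel in which all cKO points lie below all control points, and cKO replicates 1 and 2 are the lowest and the highest of all libraries for Rhbdl3.

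Mfap4 (ENSMUSG00000042436.12, chromosome 11, 61485431 to 61488900, plus strand, 6 merged exons) encodes a fibrinogen-related glycoprotein of the extracellular matrix. It stood at 108, 63.8 and 85.3 CPM in cKO and at 52.6 to 107 CPM in controls, with a control median of 96.0. The groups overlapped, and their means were 85.6 ± 21.9 and 89.7 ± 18.2 CPM (SD, n = 3 and 7). The log2 fold change was -0.06 (SE 0.21, 95% interval -0.50 to 0.39, edgeR adjusted p = 0.927), and it was 0.10 without cKO replicate 2. Mfap4 shares 89 exonic bases with Mapk7 on the opposite strand, and the summed strand-specific counts gave -0.07. Within the sets under and over 10% it was at -0.04 and -0.10.

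Mfng (ENSMUSG00000018169.12, chromosome 15, 78755882 to 78773475, minus strand, 10 merged exons) encodes Manic fringe, a glycosyltransferase that modifies Notch receptors. It stood at 51.6, 46.5 and 66.6 CPM in cKO and at 37.4 to 139 CPM in controls, with a control median of 65.3. All cKO values lay inside the control range, which was wide because control replicate 7 was at 139 CPM. The log2 fold change was -0.39 (SE 0.33, 95% interval -1.07 to 0.30, edgeR adjusted p = 0.622), and without control replicate 7 it was -0.14. Within the sets under and over 10% Mfng was at -0.36 and -0.11.

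Rhbdl3 (ENSMUSG00000017692.8, chromosome 11, 80300912 to 80355955, plus strand, 9 merged exons) belongs to the rhomboid family of intramembrane proteases. It was the member with the fewest reads, 28 to 87 per library, and stood at 9.44, 34.3 and 26.7 CPM in cKO and at 12.0 to 25.5 CPM in controls, with a control median of 21.7. The cKO libraries held both the lowest value, in replicate 1, and the 2 highest. The log2 fold change of 0.19 (SE 0.34, 95% interval -0.53 to 0.90, edgeR adjusted p = 0.850) became -0.23 without cKO replicate 2 and 0.60 without cKO replicate 1. Within the sets under and over 10% it was 0.52 and -0.036.

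Elavl4 (ENSMUSG00000028546.17, chromosome 4, 110203722 to 110351909, minus strand, 12 transcripts) encodes the neuronal RNA-binding protein HuD, which stabilizes messenger RNAs of differentiating neurons. It stood at 268, 372 and 356 CPM in cKO and at 237 to 299 CPM in controls, with a control median of 265. cKO replicates 2 and 3 lay above every control, and replicate 1 lay among them. For Elavl4 the log2 fold change was 0.31 (SE 0.13, 95% interval 0.03 to 0.60), which did not pass after adjustment (edgeR adjusted p = 0.247). It was positive under all 21 alternatives, from 0.21 to 0.44, with the lowest adjusted p of 0.0823 reached without cKO replicate 1. Within the sets under and over 10% it was 0.36 and 0.33.

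Single libraries moved several members at once. cKO replicate 1 held the lowest value of all 10 libraries for 3 members (Insm1, Sstr2 and Rhbdl3) and cKO replicate 2 the highest for 3 (Eomes, Rhbdl3 and Elavl4). Leaving out cKO replicate 2 turned the sign of 3 members, Eomes, Mfap4 and Rhbdl3, none of which had passed the test.

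**Figure D2:**
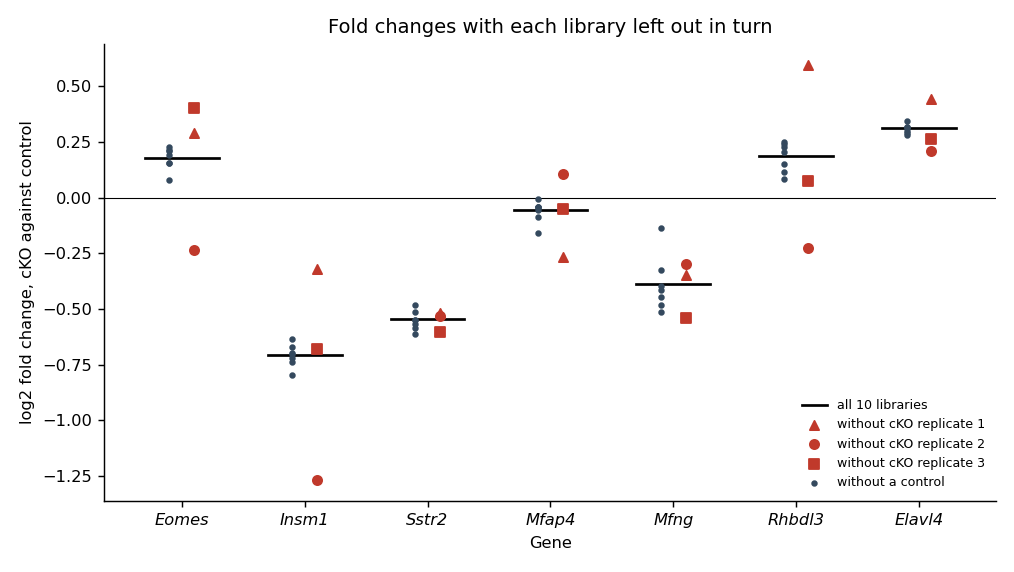
log2 fold change of each member (y axis) with all 10 libraries (line) and with each library left out in turn (points), cKO replicates by shape. Sstr2 and Elavl4 stay on their side of 0 throughout, and Eomes, Mfap4 and Rhbdl3 cross it without cKO replicate 2.

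Among the controls the members were expressed at different levels per length and varied to different degrees. Measured as CPM per kb of merged exon, the order was Sstr2 (96.8 ± 15.99, SD, n = 7), Elavl4 (49.6 ± 3.96), Mfap4 (46.7 ± 9.49), Insm1 (27.9 ± 5.73), Mfng (25.1 ± 12.1), Eomes (24.2 ± 5.04) and Rhbdl3 (4.20 ± 1.11). Sstr2 stood clear of Elavl4, and Eomes clear of Rhbdl3, in all 7 controls. The neighbours between Elavl4 and Eomes had overlapping ranges, with Elavl4 above Mfap4 in 4 of 7 controls and Mfng above Eomes in 3 of 7. Sstr2 lay above 94.5% of all genes tested on this scale, Eomes above 79.0% and Rhbdl3 above 36.4%. The coefficient of variation between controls was smallest for Elavl4 (7.99%) and largest for Mfng (48.0%), beside a median of 23.2% over all genes tested, which 2 members exceeded (Mfng and Rhbdl3).

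**Figure D3:**
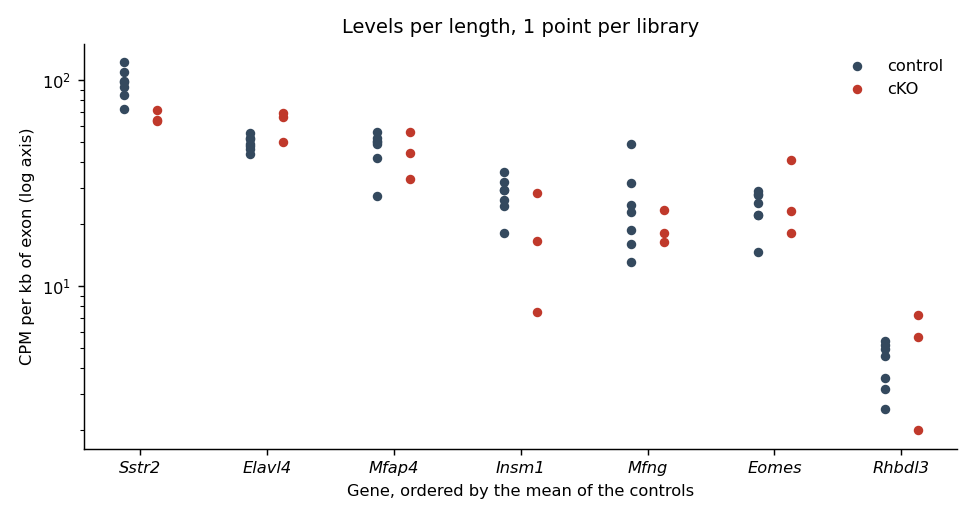
CPM per kb of merged exon (y axis, log scale) for each member, ordered by control mean, with 1 point per control and cKO library. Sstr2 is the highest and Rhbdl3 the lowest in the controls, and the genes from Elavl4 to Eomes overlap with their neighbours.

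The members did not rise and fall as a single group from embryo to embryo. Over the 7 controls, Pearson's r of log2 CPM for the 21 pairs ran from -0.36 (Eomes with Sstr2) to 0.86 (Sstr2 with Mfng), with a median of 0.27. Of the pairs, 6 exceeded 0.5. Eomes varied most closely with Mfap4 (r = 0.70) and Rhbdl3 (r = 0.63), but with all 10 libraries these were 0.12 and 0.49, and points from 1 library share its depth and composition. Among the other genes tested, those whose log2 CPM was most like that of Eomes over the 7 controls included Slc38a1, a glutamine transporter (r = 0.98), Klhl24 (0.97), Nrg1, which encodes neuregulin 1 (0.96), and Bhlhe40, a basic helix-loop-helix repressor (0.96). With only 7 libraries, 73 of 11550 genes reached an r over 0.9. Over all 10 libraries r with Eomes was 0.88 for Nrg1 and 0.45 or less for the others named.

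A further list of 16 genes of the passage from progenitor to newborn neuron, of which 15 were tested, held both directions. It gave 2 genes that rose in cKO, 1 that fell and 12 that did not pass (3 of 15 called in edgeR, against 3.15% of all genes tested), with a median log2 fold change of -0.05. Ppp1r17, at no more than 7 reads in any library, was not tested. Nhlh1 and Nhlh2, related basic helix-loop-helix factors of newborn neurons, rose. Nhlh1 stood at 102, 98.1 and 113 CPM in cKO and at 20.0 to 78.1 CPM in controls, and Nhlh2 at 106, 72.5 and 180 CPM against 10.2 to 54.9. Neither gene's groups overlapped. Their log2 fold changes were 1.21 (SE 0.25, edgeR adjusted p = 0.0113) and 1.84 (SE 0.30, adjusted p = 0.00179).

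Unc5d, a netrin receptor found in migrating multipolar cells, fell. It stood at 51.6, 77.6 and 49.2 CPM in cKO and at 90.6 to 135 CPM in controls, without overlap, and its log2 fold change was -0.91 (SE 0.19, edgeR adjusted p = 0.0127). Nhlh2 passed whichever library was left out. Without cKO replicate 3 Nhlh1 missed the threshold (1.15, adjusted p = 0.0558) and so did Unc5d (-0.80, 0.0687), which also missed it without cKO replicate 1 (-0.81, 0.0509). Within the sets under and over 10% of reads outside genes, Nhlh1 was at 1.35 and 1.11 and Unc5d at -1.13 and -0.86. In the set over 10% neither passed (edgeR adjusted p = 0.0943 and 0.233). The set under 10% holds 1 cKO library, replicate 3, so only sizes of change are given for it. Nhlh2 was at 2.41 in the set under 10%, where cKO replicate 3 is the cKO library with its highest level. In the other set it was at 1.46 and missed the threshold (edgeR adjusted p = 0.0544).

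Among the 12 that did not pass were the proneural factor Neurog2 (log2 fold change -0.68, SE 0.24, edgeR adjusted p = 0.155) and the antiproliferative gene Btg2 (0.58, SE 0.22, adjusted p = 0.192). Neurog2 passed without control replicate 1 (-0.81, adjusted p = 0.0247) and with no filter on low counts (-0.70, 0.00670). The Notch ligands Dll1 and Dll3 were at -0.14 and -0.05, the Hes-family factor Hes6 at -0.02, and Neurod1, which acts after Eomes, at 0.32. Elavl2 was at -0.27, opposite in sign to Elavl4, and the smallest adjusted p among the 12 was that of Neurog2.

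**Figure D4:**
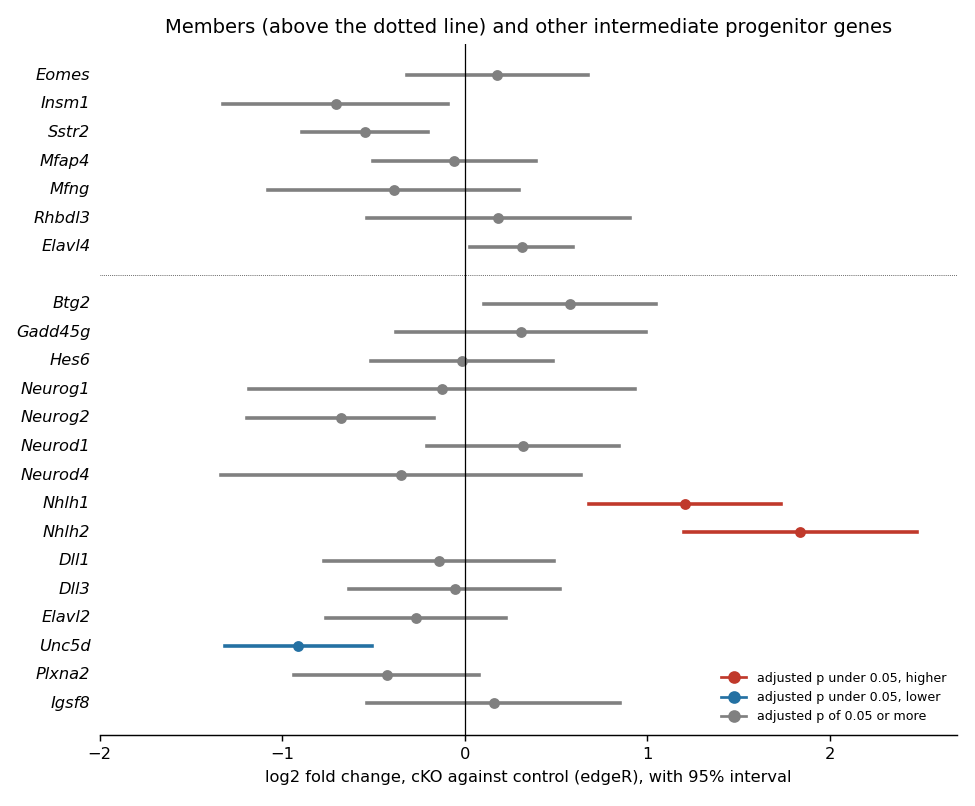
log2 fold changes from edgeR (x axis) with 95% intervals for the 7 members, above the dotted line, and the 15 other intermediate progenitor genes tested. Nhlh1 and Nhlh2 lie to the right and Unc5d to the left in colour, and all 7 members are grey.

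Relatives and partners of the members were mostly not called. Insm2, the paralogue of Insm1, was called higher in cKO where Insm1 did not pass. It averaged 29.7 reads in cKO and 3.43 in controls. Its cKO reads alone took it past the filter, so only a rise could be called. It had 13 to 53 reads in cKO and 0 to 11 in controls, at 17.9, 5.12 and 9.76 CPM against 0 to 3.92, with a log2 fold change of 3.13 (SE 0.60, edgeR adjusted p = 0.00307). Without cKO replicate 1 it fell under the filter on low counts and was not tested, and the same was so within the set under 10% of reads outside genes. Within the set over 10% it was at 3.73 and did not pass (edgeR adjusted p = 0.102). Tbr1, the T-box factor that follows Eomes in the young neuron, was at -0.18 (adjusted p = 0.705), and Tbx21 had no read in any control and at most 8 in a cKO library.

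The other somatostatin receptor genes had few reads. Sstr1 was at 1.08 to 13.8 CPM, Sstr3 at up to 6.47 and Sstr4 at up to 0.36 CPM, and Sstr5 had no read in any library, which at a limit of 3 reads allows up to 0.892 to 1.73 CPM of the library totals, for counting error only. The ligand genes Sst and Cort reached 62.3 and 3.37 CPM. Of these only Sstr1 (0.06) and Sst (0.12) were tested, and neither passed in edgeR (adjusted p = 0.974 and 0.962).

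The other fringe genes, Lfng (log2 fold change -0.50, edgeR adjusted p = 0.639) and Rfng (-0.08, 0.894), did not pass. Neither did the 5 Notch receptors and ligands tested, 2 of which had an unadjusted edgeR p under 0.05, against 16.4% of all genes tested. Of those, Jag1 came closest, at 1.38 (SE 0.42, edgeR adjusted p = 0.0926), with 10.1, 40.6 and 14.0 CPM in cKO and 4.41 to 11.6 in controls. Of the other Mfap genes 4 were tested and 0 called in edgeR, from -0.30 to -0.04, of the other rhomboid genes 4 and 0, from -0.23 to 0.29, and Elavl1 and Elavl3 were at 0.04 and -0.10 without passing. In these 4 families (Fringe, Mfap, rhomboid and Elav) 0 genes had an unadjusted p under 0.05, and in all of them and the Notch list DESeq2 and limma-voom called 0.

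Summed levels of the Cajal-Retzius and projection neuron lists did not overlap between the groups, and those of the other marker lists did. Of 6 markers of Cajal-Retzius cells, early neurons of the cortical surface, 5 were tested. All 5 (Reln, Trp73, Lhx1, Lhx5 and Calb2) were called higher in cKO by edgeR and limma-voom, and DESeq2 called 4. Over all genes tested, edgeR called 3.15%. Lhx1 averaged 41.3 reads in cKO and 3.29 in controls, so it passed the filter only through its cKO reads. Ebf3 fell under the filter. The summed level of the 6 ran from 542 to 655 CPM across cKO libraries and from 16.3 to 162 across controls. Of 11 projection neuron markers tested, edgeR called 4 lower in cKO, Neurod2, Neurod6 and Cux2 among them. The other 7 did not pass, and 2 of the 11 had a log2 fold change above 0. The sum of the list was 7067 to 8856 CPM against 9905 to 12857. Of 8 proliferation genes, Cdk1 and Ccnb1 rose, with a sum of 667 to 1483 CPM per cKO library and 543 to 919 per control. All 8 had a log2 fold change above 0 and an unadjusted p under 0.05 in edgeR, a p that 16.4% of all genes tested reached. DESeq2 called 4 of the 8 and limma-voom 0. Of 6 interneuron genes tested Dlx2 rose, 4 had an unadjusted p under 0.05, and the sum was 40.2 to 113 CPM against 15.8 to 53.6.

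Radial glial markers did not pass in edgeR (0 of 13 tested, with 2 at an unadjusted p under 0.05, against 16.4% of all genes tested). DESeq2 and limma-voom called 0 of them. They summed to between 1858 and 3295 CPM per cKO library and between 2063 and 3341 per control. The summed members lay between 693 and 912 CPM in cKO and between 746 and 1006 in controls. Oligodendrocyte precursor markers summed to at most 84.2 CPM, with Sox10 at no more than 1 read in any library. Microglial markers summed to at most 33.1 CPM, in cKO replicate 3, with Csf1r at 0 in every control. The part of these cell types in the values of Sstr2, Insm1, Elavl4, Nhlh1, Nhlh2, Unc5d and Insm2 was not tested.

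**Figure D5:**
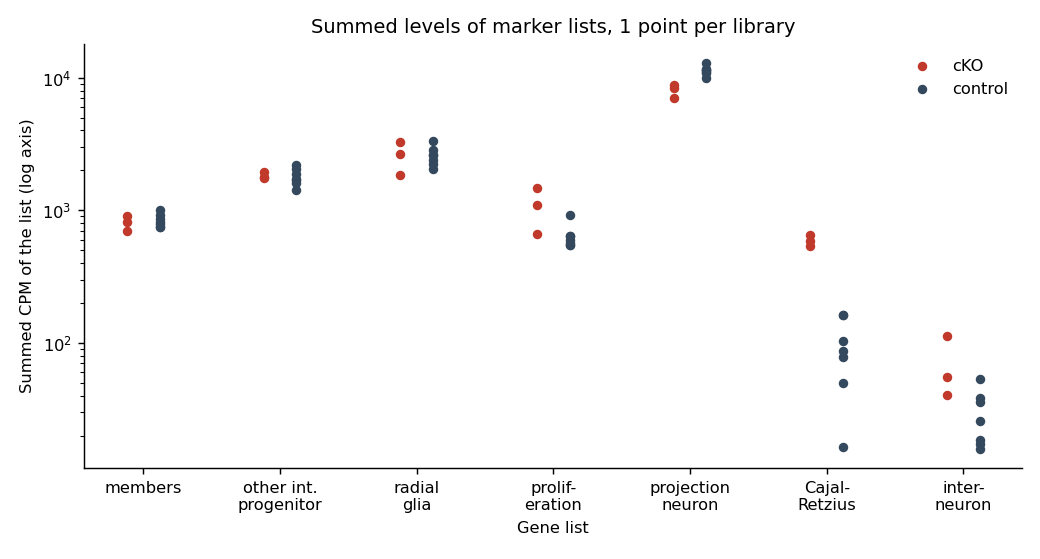
Summed CPM (y axis, log scale) of the members, the other intermediate progenitor genes and 5 marker lists, with 1 point per library. The groups overlap for the members and separate for the Cajal-Retzius list, higher in cKO, and the projection neuron list, lower in cKO.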

How the data were processed

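Gene expression was measured by Smart-Seq2 RNA-seq in 3 cKO and 7 control libraries, 1 embryo each, with groups taken from the sample labels. The authors merged technical replicates, aligned reads to GRCm38 with STAR (2.5.0c, with bedtools 2.26.0 for conversion), kept single alignments, counted on GENCODE M16 and deposited raw read counts per gene, unnormalized, in an unstranded and 2 strand-specific columns. The unstranded column was used, since 50.3% to 50.5% of strand-specific reads were sense. It leaves out reads on several genes. No molecular identifiers were described, so intervals and limits cover counting error or the spread between libraries, not amplification.

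Symbols and positions came from GENCODE M21 of GRCm38 (50604 genes matched by version, 2670 without it, 105 not). A gene was tested when it averaged at least 10 reads, with edgeR 4.0.16 (TMM, glmQLFit with legacy = FALSE, glmQLFTest, genotype alone) in R 4.3.3, adjusted by the Benjamini-Hochberg method over 11551 genes, threshold 0.05. It called 262 genes higher and 102 lower in cKO. On simulated data of 11386 genes for this comparison, edgeR called 39.1% of log2 changes of 1 and 86.4% of changes of 2. DESeq2 1.42.0, limma-voom (limma 3.58.1), other scalings, filters, columns and covariates, and each library left out, were alternatives. The fits within the 2 library sets and with the earlier quasi-likelihood method were chosen after seeing the data.

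The members and lists were chosen with earlier results of these data known. The text names every member, Cdkn1c, called genes of the other lists, relatives of the members, and the 5 genes most like Eomes, except that some genes are not reported here; Neurog2, Btg2, Dll1, Dll3, Hes6, Neurod1 and Elavl2 were named in addition after their values were seen. No pair of libraries in a group was a duplicate (chi-square per degree of freedom 4.91 to 23.7 over 24 pairs). Promoters came from RefSeq. Figures were drawn with matplotlib 3.10.9.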

Additional observations from a re-analysis of the deposited data

Results flagged for a closer look

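In the 7 controls, 56 genes among the members, their relatives and the genes called were examined for a library that stood apart from the rest by Dixon's criterion, which chance meets in about 1 of 20 groups, and 5 did. None was a member. Control replicate 5 stood apart for Tbr1 (109.5 CPM, others 164 to 187), Neurod2 (459.4 CPM, others 519 to 556) and Sst (62.3 CPM, others 1.44 to 18.5). Control replicate 2 stood apart for Rhbdd2 (127.7 CPM, others 93.7 to 106) and control replicate 1 for Rhbdf1 (9.797 CPM, others 2.59 to 5.69).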

How the results depend on the processing

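Results were recomputed under 21 alternatives, 10 of which left out 1 library. Cdkn1c and Elavl4 kept direction and side of the threshold in all 21, and Sstr2 and Insm1 kept direction. The count of members called was 0, but 1 in DESeq2 (Sstr2), and 0 to 1 with a library left out (Insm1 without cKO replicate 2, Sstr2 without control replicate 3). Of all genes, 364 were called, with 271 to 424 when a library was left out, 961 with no filter on low counts, 67 and 55 within the sets of 5 libraries under and over 10% of reads outside genes, and 510 in DESeq2 (300 higher and 210 lower, against 262 and 102). The count for other intermediate progenitor genes was 3, with 1 to 4 when a library was left out (1 without cKO replicate 3) and 0 within the set over 10%. With a library left out, Eomes ran from -0.24 to 0.40, Mfap4 from -0.27 to 0.10 and Rhbdl3 from -0.23 to 0.60. Within the sets Eomes was -0.33 under 10% and Rhbdl3 -0.036 over 10%. The smaller sets hold fewer samples, and for the other changes the cause was not tested. Same-numbered libraries did not deviate together (r from -0.21 to 0.04 over 3 pairs, with 0 of 3 cKO libraries correlating best with their own number), so they share only a number. With the replicate block, 213 genes were called, no member passed, Unc5d was lost, and Mfap4 and Mfng were at 0.18 and 0.16. At this depth and number of embryos, 39.1% of simulated log2 changes of 1 were called. Those changes were set in genes drawn at random from all genes tested, so the share is not a rate for the members. The members' changes were smaller, and changes of their size were not simulated.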
